A study of Caenorhabditis elegans with 15 samples.

Results

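The pud genes of Caenorhabditis elegans are a small family found only in nematodes, and this report follows their RNA in adult worms given rapamycin or allantoin and in worms that eat less. Probe sets were taken as members where every gene symbol in the platform annotation began with pud- and a digit. This gave 4 probe sets for 6 genes, out of 22548 probe sets naming 18217 genes. They were 177131_s_at for pud-1.1 and pud-1.2 together, 186492_s_at for pud-2.1 and pud-2.2 together, 175239_at for pud-3 and 186519_at for pud-4. The first 2 probe sets cannot separate the copies they bind, and are called pud-1 and pud-2 here. The family was singled out because pud-3 and pud-4 stood far below the controls in wild-type worms on rapamycin, so all values of these 2 genes, and all values of the family that involve that comparison, are given as a description with no test. For pud-1 and pud-2 a test is given in the remaining comparisons. Those of allantoin and of strain use the same N2 vehicle arrays as the comparison that chose the family, so they are not independent of that choice.

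PUD stands for protein up-regulated in daf-2 mutants. DAF-2, the insulin and IGF receptor of the worm, signals through AGE-1 and the AKT kinases to hold the transcription factor DAF-16/FOXO out of the nucleus, and worms with a weak DAF-2 live long. PUD-1 and PUD-2 were found as proteins that accumulate in such mutants, and the pair bind each other as a heterodimer. The roles of PUD-3 and PUD-4 are not known.

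RNA of whole worms was hybridised to Affymetrix C. elegans Genome Arrays, 3 for each of 5 groups, 15 arrays in all. The groups were wild-type N2 worms on rapamycin, an inhibitor of the TOR kinase; N2 worms on allantoin, a product of purine breakdown; eat-2 mutants (strain DA465) on rapamycin; eat-2 mutants on vehicle; and N2 worms on vehicle. Every group, controls included, was kept at 20 °C on plates with 2% DMSO for 72 h from the L4 stage, the last larval stage. eat-2 encodes a subunit of a nicotinic acetylcholine receptor of the pharynx, and its loss slows the pumping that takes in food, so the mutant serves as a model of caloric restriction; no eat-2 worms on allantoin were analysed here. The sources do not say whether the 3 arrays of a group came from separate cultures, so every p-value measures only the spread between these samples, which may be technical.

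Levels are log2 signals, so 1 unit is a 2-fold difference. They ran from 3.14 to 14.86, array medians lay between 6.79 and 7.05, and arrays of the same group correlated at r of 0.9669 to 0.9983 over all probe sets. N2 vehicle arrays were the least alike, with a median SD over probe sets of 0.21, against 0.0949 to 0.121 in the other 4 groups. The dimmest 25% of probe sets lay under a mean of 5.14, and group means under that bound are marked as dim below, because a signal there may be mostly background. The probe set for eat-2 itself read 5.35 ± 0.13 in eat-2 vehicle worms and 5.48 ± 0.077 in N2 vehicle worms (SD, n = 3 each), a difference of -0.12 with a limma adjusted p of 0.75, and so does not check the mutant label.

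In 4 of the 5 groups the pud probe sets were bright, and in N2 worms on rapamycin they were not. pud-4 read 4.24, 3.77 and 4.42 on the 3 N2 rapamycin arrays, against 9.28, 10.56 and 9.06 on the N2 vehicle arrays. The other worms had higher pud-4 levels still, at 12, 11.92 and 9.81 with allantoin, 12.26, 11.64 and 12.10 in eat-2 worms on rapamycin, and 11.35, 10.42 and 10.81 in eat-2 worms on vehicle. The 3 N2 rapamycin arrays thus lay more than 4 units under every other array, with nothing in between.

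pud-3 gave the same picture with more scatter in the controls. Its N2 rapamycin arrays read 5.22, 4.91 and 5.04, against 10.32, 11.17 and 7.10 in N2 vehicle worms. It read 12.34, 12.44 and 10.74 with allantoin, 12.31, 11.82 and 12.21 in eat-2 worms on rapamycin, and 10.57, 8.36 and 9.18 in eat-2 worms on vehicle. The third N2 vehicle array was the lowest outside the rapamycin-treated N2 worms, but it too stood above all of them.

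pud-1, the probe set shared by pud-1.1 and pud-1.2, read 6.98, 5.77 and 6.63 on N2 rapamycin arrays, against 12.03, 12.55 and 11.60 on N2 vehicle arrays. Allantoin-treated N2 worms gave 13.46, 13.49 and 12.56, eat-2 worms on rapamycin gave 13.46, 13 and 13.48, and eat-2 worms on vehicle gave 13.21, 12.22 and 12.62. Outside rapamycin-treated N2 worms these readings lay between the 94.9th and 99.1st percentile of their arrays, so the probe set was among the brightest on them. In rapamycin-treated N2 worms they lay between the 34.3rd and 49.4th percentile.

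pud-2, the partner of pud-1 in the heterodimer and the other shared probe set, read 7.89, 6.69 and 7.33 in N2 rapamycin worms, against 12.46, 13.08 and 12.17 in N2 vehicle worms. It read 13.90, 13.85 and 13.01 with allantoin, 13.85, 13.50 and 13.75 in eat-2 worms on rapamycin, and 13.59, 12.71 and 13.09 in eat-2 worms on vehicle. The N2 rapamycin readings sat between the 46.1st and 59.7th percentile of their arrays and the others between the 97.0th and 99.6th. All 4 probe sets therefore had their 3 N2 rapamycin readings below the 12 others, a pattern that 17.2% of all probe sets shared, and what set the pud genes apart from most of those was the size of the gap.

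**Figure D1:**
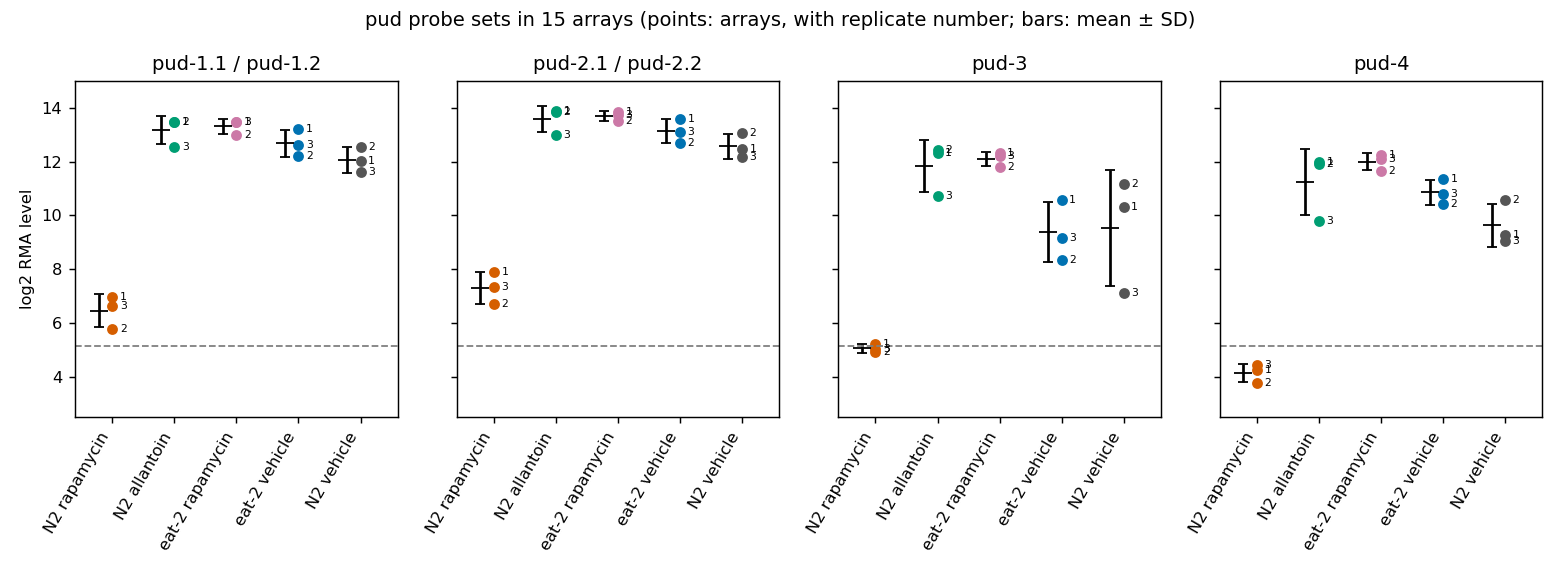
Log2 signal (y axis) of the 4 pud probe sets, 1 panel each, in the 5 groups (x axis), with 1 numbered point per array, bars for the mean and SD of 3 arrays, and a dashed line at the bound of 5.14. The 3 N2 rapamycin points lie below all others in each panel, and only for pud-3 and pud-4 is their mean under the bound.

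Group means put the order of the levels in plain view. For pud-4 they were 4.14 ± 0.34 (dim) in N2 rapamycin, 11.24 ± 1.2 in N2 allantoin, 12 ± 0.32 in eat-2 rapamycin, 10.86 ± 0.46 in eat-2 vehicle and 9.63 ± 0.81 in N2 vehicle worms (SD, n = 3 each). For pud-3 they were 5.06 ± 0.16 (dim), 11.84 ± 0.96, 12.11 ± 0.26, 9.37 ± 1.1 and 9.53 ± 2.1 in the same 5 groups. The order from low to high was thus N2 rapamycin, N2 vehicle, eat-2 vehicle, N2 allantoin and eat-2 rapamycin for pud-4, while pud-3 had the 2 vehicle groups the other way round.

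pud-1 averaged 6.46 ± 0.62 in N2 rapamycin, 13.17 ± 0.53 in N2 allantoin, 13.32 ± 0.27 in eat-2 rapamycin, 12.68 ± 0.50 in eat-2 vehicle and 12.06 ± 0.47 in N2 vehicle worms. pud-2 averaged 7.30 ± 0.60, 13.58 ± 0.50, 13.70 ± 0.18, 13.13 ± 0.44 and 12.57 ± 0.47 in the same groups, so both had the order of pud-4. Neighbours in that order mostly overlapped: eat-2 rapamycin with N2 allantoin for all 4 probe sets, eat-2 vehicle with N2 vehicle for all 4, and N2 allantoin with eat-2 vehicle for all but pud-3. Only the step up from N2 rapamycin was clear of the spread for the whole family.

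The study asked which transcripts a drug moves in wild-type worms. With rapamycin, pud-1 differed from N2 vehicle by -5.60 (limma SE 0.37), pud-4 by -5.49 (SE 0.41), pud-2 by -5.26 (SE 0.36) and pud-3 by -4.47 (SE 0.99). As measured, these were the 4 most negative differences of all 22548 probe sets, which is the reading the family was chosen on. pud-1 was 48.6-fold and pud-2 38.4-fold lower. pud-3 and pud-4 were dim in N2 rapamycin worms, so their folds are only bounds: with readings under 5.14 raised to it, pud-4 was at least 22.5-fold lower and pud-3 at least 20.6-fold lower. Where these 2 stand in order beside pud-1 and pud-2 therefore cannot be told. The bounds here and below allow for the dim readings only, not for the spread of the brighter group. Without N2 vehicle array 2 the measured pud-3 difference was -3.65 in place of -4.47.

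Arrays of the 2 groups did not overlap for any of the 4 probe sets, as was so, in the lower direction, for 20.8% of all probe sets, and 3.26% of all passed as lower by limma at an unadjusted p under 0.05 with over 2-fold change. In whole worms, fewer cells that express a gene and less of its RNA per cell cannot be told apart. The markers of other tissues and cells moved too. Of 14 sperm markers 6 passed as higher, beside 5.15% of all probe sets, and 0 as lower, with a mean level by array of 9.57 to 9.89 in N2 rapamycin and 7.62 to 9.16 in N2 vehicle worms. Of 13 hypodermis markers 6 were higher and 0 lower, at 10.02 to 10.33 against 8.78 to 9.57, and of 15 germline and oocyte markers 0 were higher and 3 lower, at 11.01 to 11.11 against 11.28 to 11.96. Of 13 intestine markers 3 were higher and 1 lower, at 10.29 to 10.35 against 9.81 to 10.44, and 0 of 10 muscle and 0 of 10 neuron markers passed in either direction. The mean level by array of the muscle markers was 9.20 to 9.66 against 8.85 to 9.51, and that of the neuron markers 9.48 to 9.55 against 8.95 to 9.55. The part of these differences in the pud levels was not tested.

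Allantoin, in contrast, went with higher readings. The difference of N2 allantoin from N2 vehicle was 1.11 (SE 0.34) for pud-1 and 1.02 (SE 0.33) for pud-2, and both passed the 2-fold threshold with a limma p of 0.0172 and 0.0208, where 0.891% of all probe sets passed as higher. After Benjamini-Hochberg adjustment over all probe sets both had an adjusted p of 0.236, and no probe set on the array passed 0.05 in this comparison by limma, although 4466 had an unadjusted p under 0.05 and 913 of them over 2-fold change as well. The lowest allantoin reading of pud-1, 12.56, lay just over its highest vehicle reading, 12.55, while that of pud-2, 13.01, lay under 13.08. Arrays of the 2 groups did not overlap, in the higher direction, for 3642 of all 22548 probe sets. The deviations of pud-1 and pud-2 from their group means correlated at r = 0.985, so their calls are not separate evidence.

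pud-3 and pud-4 also read higher with allantoin, by 2.31 (SE 1.1) and 1.61 (SE 0.70), which placed them at ranks 4 and 45 from the highest of the 22548 differences, but arrays of the 2 groups overlapped for both. The third array stood low in each group, at 10.74 for pud-3 and 9.81 for pud-4 with allantoin, and at 7.10 and 9.06 in N2 vehicle. Without N2 vehicle array 3 the pud-3 difference was 1.1 in place of 2.31. The pud-1 call was lost without that array or without N2 allantoin array 1 or 2, where the difference was 0.88, 0.96 and 0.95. The pud-2 call was lost without the same arrays, at 0.82, 0.86 and 0.89, and also without N2 vehicle array 1, at 0.96.

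With allantoin the sperm markers ran the other way, 0 higher and 8 lower of 14, with a mean level by array of 6.77 to 7.43 in N2 allantoin and 7.62 to 9.16 in N2 vehicle worms. Of the 14, 3 were dim with allantoin. Of the remaining marker lists, 0 of 13 hypodermis markers were higher and 1 lower, 0 of 10 muscle and 0 of 10 neuron markers were higher and 3 of each lower, and 0 of 13 intestine and 0 of 15 germline and oocyte markers passed. Over all probe sets 3.16% passed as lower. The germline and oocyte markers, like the pud genes, read higher, with a median difference of 0.51 and a mean level by array of 12.08 to 12.14 in N2 allantoin and 11.28 to 11.96 in N2 vehicle worms, with no overlap. Muscle markers were clear in the other direction, at 8.62 to 8.69 against 8.85 to 9.51, as were neuron markers, at 8.56 to 8.74 against 8.95 to 9.55, while hypodermis markers (8.64 to 9.07 against 8.78 to 9.57) and intestine markers (9.77 to 10.17 against 9.81 to 10.44) overlapped. The part of these in the pud readings was not tested.

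Between strains on vehicle, where the eat-2 mutant served as the model of eating less, neither pud-1 nor pud-2 passed. Lower food intake cannot be told apart here from other effects of the mutant strain. eat-2 vehicle exceeded N2 vehicle by 0.62 (SE 0.33) for pud-1, with a limma adjusted p of 0.69, and by 0.56 (SE 0.31) for pud-2, with an adjusted p of 0.694. Neither was over 2-fold or under 0.05 before adjustment, at p of 0.108 and 0.119, and 1.52% of all probe sets passed in either direction. pud-4 was 1.23 higher (SE 0.44) and pud-3 was -0.16 apart (SE 1.1). The arrays of the 2 strains overlapped for all 4 probe sets, where 9.22% of all probe sets were clear as higher and 5.16% as lower, so no direction can be read for pud-3, whose N2 vehicle readings alone spanned 7.10 to 11.17. Of the hypodermis markers 0 were higher and 5 lower in eat-2 vehicle worms, at a mean level by array of 8.21 to 8.63 against 8.78 to 9.57 in N2 vehicle, and 1 of 14 sperm markers was lower, beside 0.812% of all probe sets as lower. Of 13 intestine markers 1 was higher and 0 lower, beside 0.705% of all probe sets as higher. No muscle, neuron or germline and oocyte marker passed in either direction.

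In eat-2 mutants rapamycin was not followed by low pud readings. eat-2 rapamycin stood above eat-2 vehicle by 2.74 (SE 0.51) for pud-3 and by 1.14 (SE 0.26) for pud-4. Arrays of the 2 groups did not overlap for these 2 genes, as was so for 20% of all probe sets in the higher direction, and pud-3 had rank 10 from the highest of all differences. pud-1 was 0.63 higher (SE 0.26, limma p of 0.0454, adjusted p of 0.157) and pud-2 was 0.57 higher (SE 0.22, p of 0.0384, adjusted p of 0.141). Both were under 2-fold, overlapped eat-2 vehicle and so did not pass the threshold, which 1.15% of all probe sets passed as higher.

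Beside this, 8 of 14 sperm markers were lower and 0 higher in eat-2 rapamycin worms, at a mean level by array of 6.75 to 7.02 against 7.46 to 8.61 in eat-2 vehicle worms, with 2 of the 14 dim in eat-2 rapamycin. Of 13 hypodermis markers 3 were higher and 0 lower, at 8.74 to 8.85 against 8.21 to 8.63, and 0 of the intestine, muscle, neuron and germline and oocyte markers passed. Over all probe sets 1.91% passed as lower. The germline and oocyte markers nevertheless read higher together with the pud genes, with a median difference of 0.35. Of the 15, 5 had a limma adjusted p under 0.05, beside 13.8% of all probe sets. Their mean level by array was 12.03 to 12.11 in eat-2 rapamycin and 11.58 to 11.84 in eat-2 vehicle worms, with no overlap. Intestine markers were also clear by their mean level, at 10.32 to 10.49 against 10.19 to 10.29. Their median difference, however, was only -0.01, against 0.03 over all probe sets, so most of the list did not read higher. Muscle markers (8.45 to 8.98 against 8.69 to 8.88) and neuron markers (8.56 to 8.89 against 8.86 to 9) overlapped. The part of these markers in the pud readings was not tested.

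The measured differences with rapamycin thus had opposite signs in the 2 strains, although in eat-2 worms pud-1 and pud-2 overlapped vehicle. The rapamycin difference in eat-2 minus that in N2 was 7.21 (SE 1.2) for pud-3, 6.63 (SE 0.53) for pud-4, 6.24 (SE 0.49) for pud-1 and 5.83 (SE 0.46) for pud-2, as measured the 4 largest values of this kind on the array, of either sign. Those of pud-3 and pud-4 rest on the dim N2 rapamycin readings. Over all probe sets 13.7% passed limma's strain test at an unadjusted p under 0.05 with over 2-fold, and 24.4% at an adjusted p under 0.05. For the pud genes it is a description, since the N2 side of it chose the family. Both N2 rapamycin below N2 vehicle and eat-2 rapamycin above eat-2 vehicle with no overlap held for pud-3 and pud-4, and for 5.66% of all probe sets.

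**Figure D2:**
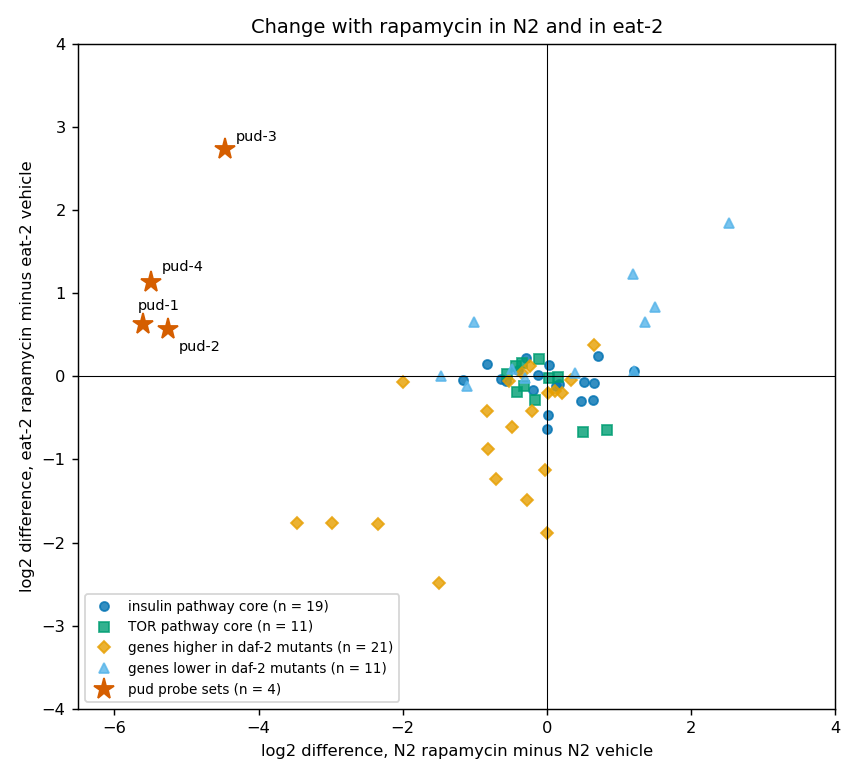
Rapamycin minus vehicle in eat-2 worms (y axis, log2) against the same difference in N2 worms (x axis, log2), with 1 point per gene of the insulin and TOR pathways and of the genes known to be higher or lower in daf-2 mutants, and a star for each of the 4 pud probe sets. The pud stars stand alone at the upper left, between -5.60 and -4.47 in N2 and between 0.57 and 2.74 in eat-2.

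Set directly against each other on rapamycin, eat-2 exceeded N2 worms by 6.86 for pud-1 and 6.39 for pud-2, which are 116- and 84.1-fold. With dim arrays raised to the bound, pud-3 was at least 123-fold and pud-4 at least 116-fold higher in eat-2. No array overlapped for any of the 4, as for 38.5% of all probe sets in that direction, so on rapamycin the 2 strains differed widely over the whole array as well.

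The 2 drugs differed in N2 worms by nearly as much. Rapamycin minus allantoin was -6.71 for pud-1 and -6.28 for pud-2, and at the bound pud-3 was at least 102-fold and pud-4 at least 68.7-fold lower with rapamycin, again with no overlap, against 38% of all probe sets in that direction. N2 rapamycin minus eat-2 vehicle was -6.23 for pud-1 and -5.83 for pud-2, and at the bound pud-3 was at least 18.4-fold and pud-4 at least 52.7-fold lower, also with no overlap, against 34.1% of all probe sets. eat-2 rapamycin and N2 allantoin, the highest groups, differed by 0.75 for pud-4, 0.27 for pud-3, 0.15 for pud-1 and 0.11 for pud-2, with every gene overlapping. These comparisons share arrays with those above and are not separate evidence.

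eat-2 rapamycin also stood clear above N2 vehicle for all 4 probe sets, by 2.58 for pud-3, 2.36 for pud-4, 1.26 for pud-1 and 1.13 for pud-2, beside 17.9% of all probe sets. N2 allantoin minus eat-2 vehicle was 2.47 for pud-3, with no overlap, beside 21.4% of all probe sets. It was 0.49 for pud-1, 0.45 for pud-2 and 0.38 for pud-4, all with overlap. Only for pud-3, therefore, were these 2 groups clear of each other.

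Within groups the 4 probe sets moved together from array to array. The lowest array was the same for all 4 in each of the 5 groups: array 2 of N2 rapamycin, array 3 of N2 allantoin, array 2 of eat-2 rapamycin, array 2 of eat-2 vehicle and array 3 of N2 vehicle. The highest array was the same for all 4 only in eat-2 vehicle (array 1) and N2 vehicle (array 2). After removing group means, the deviations of pud-1 and pud-2 correlated at r = 0.985 over the 15 arrays, those of pud-1 and pud-4 at 0.847, pud-2 and pud-4 at 0.84, pud-1 and pud-3 at 0.751, pud-3 and pud-4 at 0.737, and pud-2 and pud-3 at 0.732. These are descriptions: the probe sets share each RNA sample and may share sequence.

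**Figure D3:**
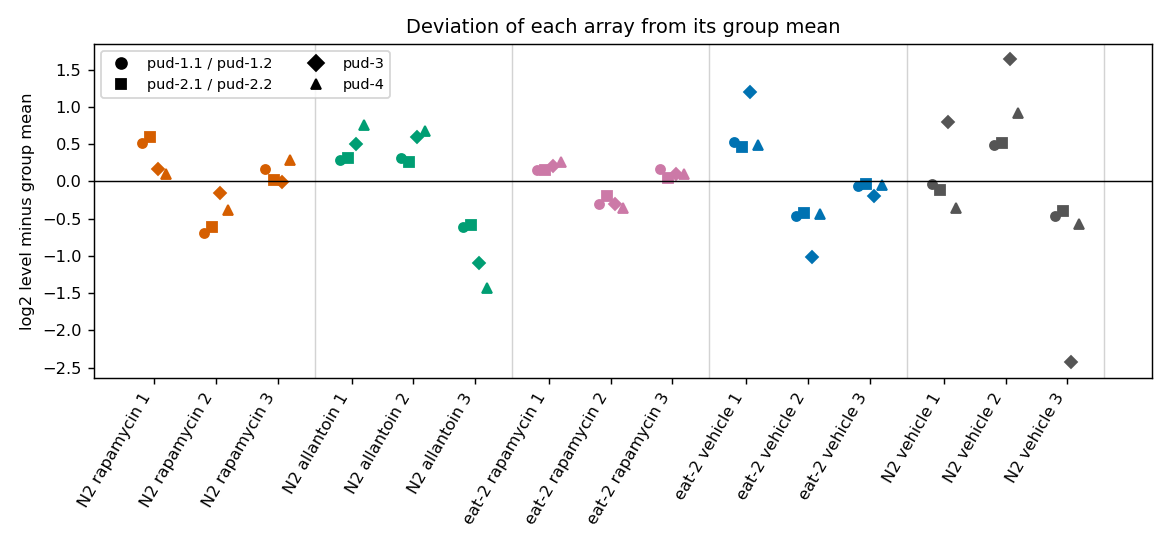
Deviation of each array from its group mean (y axis, log2) for the 4 pud probe sets, 1 marker shape each, by group and array (x axis). All 4 markers are at their lowest at array 2 of N2 rapamycin, array 3 of N2 allantoin, array 2 of both eat-2 groups and array 3 of N2 vehicle, where pud-3 lies furthest from its mean.

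Over all 15 levels pud-1 and pud-2 correlated at r of 1.0 to 3 digits, pud-1 and pud-4 at 0.988, pud-2 and pud-4 at 0.987, pud-3 and pud-4 at 0.93, pud-1 and pud-3 at 0.917 and pud-2 and pud-3 at 0.914. Over the 12 arrays outside N2 rapamycin it was lower but still high, at 0.995, 0.956, 0.962, 0.779, 0.871 and 0.867 for the same pairs. The gap of pud-2 over pud-1 within an array was 0.70 to 0.92 in N2 rapamycin and 0.26 to 0.57 in all other groups, in keeping with the larger difference of pud-1; levels of different probe sets are not otherwise comparable.

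The genes lie together. In the RefSeq gene table of assembly WBcel235, used only for names and gene order, the 6 genes stand next to each other on chromosome V, in the order pud-1.2, pud-2.2, pud-3, pud-4, pud-2.1 and pud-1.1, with 0 other genes between them. The outer 4 thus mirror each other around the inner pair. The nearest 3 genes with a probe set of their own on each side are Y19D10B.1, irld-16 and Y19D10B.6 before them, and irld-29, irld-30 and irld-31 after them.

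None of these neighbours showed such a difference. N2 rapamycin minus N2 vehicle was -0.03 for Y19D10B.1 and irld-16, 0.33 for Y19D10B.6, 0.23 for irld-29, 0.09 for irld-30 and -0.12 for irld-31. None passed the 2-fold threshold in any of the 4 comparisons or the strain test by limma. The irld genes encode proteins related to the extracellular part of the insulin receptor, and irld-16, irld-31 and Y19D10B.1 are listed as pseudogenes. These probe sets were dim, with group means of 3.73 to 5.14, so a lower level could hardly have been seen in them.

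**Figure D4:**
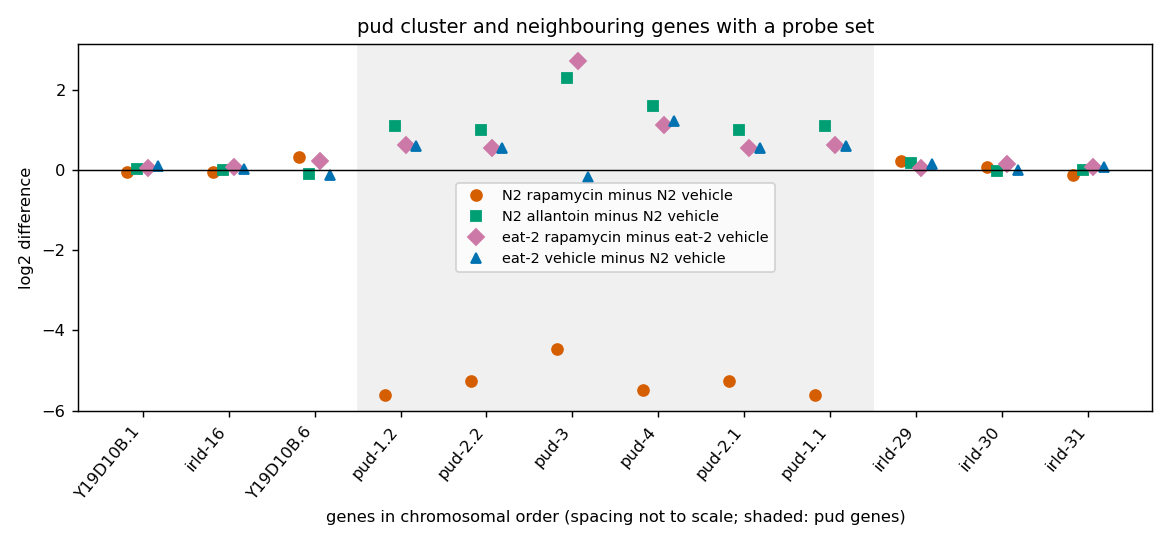
Log2 difference (y axis) in 4 comparisons, 1 marker shape each, for the 6 pud genes (shaded) and the 3 genes with a probe set on each side, in their order on chromosome V (x axis, spacing not to scale); copies that share a probe set show the same values. The neighbours lie between -0.12 and 0.33 throughout, while the pud genes lie between -5.60 and -4.47 for N2 rapamycin and above 0 in the others, other than pud-3 at -0.16 for eat-2 vehicle.

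The family takes its name from daf-2 mutants, so the pathway itself was looked at. Of 19 core insulin pathway genes 0 were higher and 1 lower with rapamycin in N2, beside 5.15% and 3.26% of all probe sets. The 1 was pdk-1, a kinase that activates AKT, at -1.17 with a limma adjusted p of 0.0462. None of the 19 passed in the other 3 comparisons. daf-2 itself differed by -0.13 with rapamycin in N2, -0.20 with allantoin, 0.02 with rapamycin in eat-2 and -0.10 in eat-2 vehicle against N2 vehicle, and passed in none of them. Its probe set is of a kind that can bind several genes. Its group means were only 5.8 to 6.0, under the lowest array median of 6.79, so a small change could be missed.

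The transcription factor daf-16 differed by 0.52 with rapamycin in N2 (limma adjusted p of 0.116), -0.62 with allantoin (adjusted p of 0.236), -0.07 with rapamycin in eat-2 and -0.32 between strains on vehicle. pqm-1, which acts opposite to DAF-16 on many of its targets, differed by 0.64 (adjusted p of 0.0963), -0.46, -0.28 and -0.23. let-363, the TOR kinase that rapamycin inhibits, differed by 0.03, 0.13, -0.02 and -0.03. None of these passed, nor did any of 11 core TOR pathway genes in the 4 comparisons. Smaller differences were seen: with rapamycin in N2, 5 of the 19 insulin and 1 of the 11 TOR pathway genes had a limma adjusted p under 0.05. Over all probe sets that share was 9.38%. With rapamycin in eat-2 it was 1 of 19 and 2 of 11, beside 13.8% of all probe sets. With allantoin and between strains on vehicle it was 0 for both lists.

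Other genes known to be high in daf-2 mutants were mostly level or lower on rapamycin in N2, with 0 higher and 4 lower of 21 measured, beside 5.15% and 3.26% of all probe sets, a median difference of -0.34 and -0.02 over all probe sets. The 4 were the small heat shock genes hsp-16.41 (-3.47, limma adjusted p of 0.0269), hsp-16.2 (-2.98, adjusted p of 0.0314) and hsp-12.6 (-2.35, adjusted p of 0.125, dim in N2 rapamycin) and the metallothionein mtl-2 (-1.99, adjusted p of 0.00728). Their measured differences were all smaller than the -4.47 to -5.60 of the pud genes.

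With allantoin, where pud-1 and pud-2 were higher, 0 of these 21 genes were higher and 7 lower, beside 0.891% and 3.16% of all probe sets, with a median of -0.65 against 0.05 over all probe sets. They included hsp-12.3 (-2.42), hsp-12.6 (-2.15, dim with allantoin), hsp-16.41 (-1.63) and mtl-1 (-1.45), with limma adjusted p of 0.236 to 0.252. In eat-2 worms rapamycin went with 0 higher and 8 lower, beside 1.15% and 1.91% of all probe sets, and a median of -0.42 against 0.03, led by hsp-12.3 (-2.49, adjusted p of 0.00314), the glyoxylate cycle enzyme icl-1 (-1.89, adjusted p of 0.00288) and hsp-12.6 (-1.78, adjusted p of 0.00317, dim in eat-2 rapamycin). The pud genes stood on the other side of 0 from these named genes in both comparisons. Between strains on vehicle 2 of the 21 were higher and 0 lower, lys-7, a lysozyme, at 1.71 (adjusted p of 0.493) and mtl-2 at 1.02 (adjusted p of 0.358), beside 0.705% of all probe sets as higher.

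Genes known to be low in daf-2 mutants split on rapamycin in N2, with 4 higher and 3 lower of 11, beside 5.15% and 3.26% of all probe sets, and a median of 0.39 against -0.02 over all. dod-24 was 2.52 higher (limma adjusted p of 0.124), dod-19 1.5 (adjusted p of 0.0417) and dod-22 1.36 (adjusted p of 0.00813), while the yolk protein genes vit-5 (-1.47, adjusted p of 0.0129) and vit-2 (-1.11, adjusted p of 0.0264) were lower. With rapamycin in eat-2 worms 2 were higher, beside 1.15% of all probe sets, and 0 lower, with a median of 0.09 against 0.03: dod-24 at 1.85 (adjusted p of 0.0118) and dod-17 at 1.23 (adjusted p of 0.027). None of the 11 passed with allantoin or between strains on vehicle.

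The genes most like pud-4 over the 15 arrays, by Pearson's r among 20764 probe sets with 1 symbol outside the family, were the yolk protein gene vit-4 (0.964), C15A11.4 (0.955), vit-5 (0.949), spr-5, a histone demethylase (0.947), and the collagen col-151 (0.946). For pud-3 they were C15A11.4 (0.943), the cathepsin B-like protease cpr-6 (0.936), the short-chain dehydrogenase dhs-20 (0.936), T13F3.6 (0.935) and F23D12.1 (0.933). The likeness was weaker without the N2 rapamycin arrays, where r was 0.649 for vit-4, 0.805 for C15A11.4, 0.468 for vit-5, 0.68 for spr-5 and 0.707 for col-151 with pud-4, and 0.809 to 0.851 for the 5 of pud-3.

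A high r was not particular to the named genes: 200 probe sets, 0.963% of those ranked, exceeded 0.9 with pud-4, and 54, 0.26%, with pud-3. Still more had r under -0.9, at 629 (3.03%) with pud-4 and 108 (0.52%) with pud-3. Over the 12 arrays without N2 rapamycin only 5 and 17 exceeded 0.9. As measured, none of the like genes differed by as much between N2 rapamycin and N2 vehicle. vit-4 averaged 12.45 ± 0.14 in N2 rapamycin and 14.10 ± 0.21 in N2 vehicle worms, a difference of -1.65, and T13F3.6 averaged 5.05 ± 0.32 (dim) and 6.79 ± 0.66, a difference of -1.73. Both vit probe sets are of a kind that can bind several yolk protein genes. Outside N2 rapamycin their group means were 14.10 to 14.47 for vit-4 and 14.30 to 14.64 for vit-5. These lie close to the highest signal in the series, 14.86, so the size of the vit differences may be understated. T13F3.6 also read higher in eat-2 rapamycin than in eat-2 vehicle worms, at 8.19 ± 0.21 and 6.38 ± 0.48, as pud-3 did.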

How the data were processed

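The deposited values are log2 signals, summarised per probe set by the authors through RMA (Affymetrix Expression Console), who compared groups in Transcriptome Analysis Console. Versions and the genome build are not given in the sources used here. The 77 control probe sets were left out. Of the other 22548, 20766 carried 1 gene symbol in the platform annotation, 887 several and 895 none. Listed genes were read from the probe set of highest mean among those naming only that gene. Groups were compared 2 at a time on their 6 arrays with limma 3.58.1 in R 4.3.3 (lmFit, eBayes, two-sided), and the effect of rapamycin between strains on 12 arrays. A call was an unadjusted p under 0.05 with over 2-fold change, after the study's methods, and Benjamini-Hochberg adjusted p-values are printed beside it. The scripts were tested on simulated data. The number of arrays limits the precision. Named were all pud probe sets, of each list up to 4 called genes in each comparison, daf-2, daf-16, pqm-1, let-363, the 5 genes most like pud-3 and pud-4, and 3 neighbours on each side. vit-2 and eat-2 were named outside this rule. The members and lists were chosen with earlier results of these data known. The alternatives were other scalings, a filter on dim probe sets, other fits, a replicate block and leaving out each array. Gene names and order were checked against RefSeq WBcel235.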

Additional observations from a re-analysis of the deposited data

Results flagged for a closer look

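For pud-3 and pud-4 all 3 eat-2 rapamycin arrays stood above eat-2 vehicle and all 3 N2 rapamycin arrays below N2 vehicle, so the rapamycin difference in eat-2 minus that in N2 came to 7.21 and 6.63. This difference was not tested, since both genes were chosen with these values known.

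In the genes of the pathway and marker lists, limma found a rapamycin difference in eat-2 minus that in N2 over 2-fold and past an adjusted p of 0.05 for these named ones. It was 1.14 for pdk-1 (limma adjusted p of 0.027), -1.49 for pha-4 (adjusted p of 0.00639), a FOXA transcription factor, and -1.17 for hlh-30 (adjusted p of 0.013), the TFEB factor of autophagy. Among genes high or low in daf-2 mutants it was 1.92 for mtl-2, -1.89 for icl-1, 1.67 for dod-23 and 1.47 for vit-5, with limma adjusted p of 0.0026, 0.00512, 0.0111 and 0.00189. vit-5 thus had the sign of the pud genes at a smaller measured size.

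Marker genes past the same limma test were the adult collagen col-19 at 2.38 (adjusted p of 0.0301), the neuropeptide-processing enzyme egl-3 at -1.21 (adjusted p of 0.041), and oma-2 and egg-1 of oocytes at 1.57 and 1.48 (adjusted p of 0.00662 and 0.0099). The sperm genes ran the other way, with ssp-16 at -3.93, msp-53 at -3.55, gsp-3 at -3.52, msp-19 at -3.23 and fog-3 at -2.23 (limma adjusted p of 0.00662 to 0.0207). In the same comparison, at an unadjusted p under 0.05 with over 2-fold, 1 of 13 hypodermis markers, col-19, passed as higher and 6 as lower. Their median was -0.87, so col-19 went against its list. Of 15 germline and oocyte markers 7 were higher and 0 lower, and of 14 sperm markers 0 were higher and 10 lower. Over all probe sets 5.25% passed as higher and 8.41% as lower. Whether the pud differences go with these marker genes was not tested.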

How the results depend on the processing

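All N2 rapamycin and interaction differences of the 4 pud probe sets kept their direction under every setting tried, and so did those with rapamycin in eat-2 and with allantoin. Leaving out each array in turn gave, for pud-1, pud-2, pud-3 and pud-4, -5.86 to -5.26, -5.56 to -4.96, -5.68 to -3.65 and -5.77 to -5.03 with rapamycin in N2; 0.88 to 1.42, 0.82 to 1.30, 1.1 to 3.13 and 1.23 to 2.33 with allantoin; 0.40 to 0.90, 0.36 to 0.80, 2.24 to 3.35 and 0.92 to 1.38 with rapamycin in eat-2; 0.36 to 0.87, 0.33 to 0.82, -1.37 to 0.66 and 0.94 to 1.69 between strains on vehicle; and 5.89 to 6.50, 5.52 to 6.12, 6.39 to 8.43 and 6.17 to 6.91 for the interaction. The pud-3 difference between strains on vehicle turned to 0.76 with array weights, 0.23 and 0.66 without N2 vehicle array 1 or 2, and 0.35 without eat-2 vehicle array 2. The allantoin calls were lost under the unmoderated test (pud-1 1.11, p of 0.0543; pud-2 1.02, p of 0.0615), and that of pud-2 under cyclic loess (0.94); the cause was not tested.

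Leaving out each array gave 1378 to 3082 called probe sets with rapamycin in N2 (3082 without N2 vehicle array 2), 337 to 2047 with allantoin and 196 to 1144 between strains (2047 and 1144 without N2 vehicle array 1), 2448 to 4272 for the interaction and 621 to 764 in eat-2 worms on rapamycin. The allantoin count of 913 became 1393 with array weights and 315 unmoderated, and the strain count of 342 became 741 and 198; the cause was not tested. Median centring moved the median of all probe sets from -0.0183 to -0.123 for rapamycin in N2, and the share of calls that were higher there from 61.3% to 50.1%; with allantoin that share was 22% and became 33.8%, for the interaction it was 38.4% and 56.7%, and in eat-2 worms on rapamycin 37.5% and 48.4%.

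Same-numbered arrays of compared groups deviated with correlations of -0.228 to 0.454 and did not all exceed 0.1 in any comparison. Between strains on vehicle they were 0.448, 0.454 and -0.165. Whether the numbers pair the samples cannot be told from this, and the main fits do not use them. With the replicate number as a block the counts were 1914, 898, 466, 696 and 3133 against 1897, 913, 342, 690 and 3081 in the order rapamycin in N2, allantoin, strain, rapamycin in eat-2 and interaction, and no pud call changed.

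Of the 5 genes most like pud-3 and pud-4, 3 and 2 stayed among the 5 after median centring, and 0 and 0 by Spearman's rho. Over the 12 arrays without N2 rapamycin and over within-group deviations, both chosen after seeing the data, it was again 0 and 0. Signal near background limits pud-3 and pud-4 in N2 rapamycin worms, where their folds are given as bounds.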
